A study of Mus musculus with 15 samples.

Results

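The clustered protocadherins are cell-surface proteins of the cadherin superfamily that are encoded in the mouse by 3 neighbouring gene clusters, alpha, beta and gamma. They are best known from the nervous system, where each neuron switches on its own combination of members, proteins of the same kind bind each other between touching cell membranes, and the branches of a neuron thereby recognize and avoid one another. Each alpha or gamma member has its own promoter and variable exon, which is spliced to constant exons common to its cluster, while beta members consist of a single variable exon. Promoters are selected by looping to distant enhancers through CTCF and cohesin and are kept silent by DNA methylation and histone marks, and in skin the members are mostly studied in its nerves.

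The members were chosen by symbol, as the genes named Pcdha, Pcdhb or Pcdhg followed by a number or a subfamily letter, and the family itself was selected on the higher level of 1 member, Pcdhga1, in skin treated with high-density beads. The comparison of high-density with acellular beads is therefore given as a description, without a test, for every member. The rule found 54 of the 18929 genes in the table, 11 alpha, 22 beta and 21 gamma members. The reference annotation lists 58, and Pcdha1, Pcdha6, Pcdha7 and the pseudogene Pcdhgb8 were not analysed here.

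Skin RNA was sequenced in 15 samples of 5 groups with 3 samples each, all labelled wild type. The wounded groups were male BALB/c mice of 4 to 6 weeks with a full-thickness excision on the back, 10 mm or 15 mm wide, onto which Matrigel beads were printed by jetting. In the acellular groups the beads carried no cells. In the HDB groups, high-density beads loaded with human umbilical cord mesenchymal stem cells (MSCs) were spaced by acellular beads, with 56 such beads and 84000 cells on the 10 mm wounds and 120 beads and 180000 cells on the 15 mm wounds. The table lists mouse genes, and reads from the human cells were not assessed. The methods give more than 1 time, implantation over 4 weeks where sequencing is described and day 21 where the skin experiment ends. The fifth group was normal, unwounded skin, whose age and strain are not stated. No source says whether the 3 samples of a group are separate mice, so p-values measure only the spread between samples.

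Total estimated counts ranged from 15840551 to 18404188 per sample. A keratinocyte list summed to 9902 to 26049 CPM (each count divided by the sample's total after edgeR's TMM scaling, per 1000000) in every sample, and none of its 10 genes was at 0. Acellular 15 mm replicate 1 stood apart from the rest. Its 10 hair shaft markers (the list also holds inner root sheath keratins) summed to 19442 CPM, against 14.7 to 1506 CPM in the other wounded samples and 6.10 to 6.39 CPM in normal skin, and its 7 melanocyte markers summed to 2511 CPM, against at most 353 CPM elsewhere. It also had the lowest beta cluster level of all samples, and results that rest on it are given with and without it. In whole skin, fewer cells of a type and less RNA per cell cannot be told apart.

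All members lie on chromosome 18 (build GRCm38.p6), on the plus strand for the 53 members whose transcript was matched, all except Pcdha10. The alpha members of the table span 36939205 to 37187663, the beta members 37264998 to 37521419 and the gamma members 37661775 to 37841873. The matched alpha members share 2860 bases of constant exons, out of transcripts of 5206 to 5888 bases, and gamma members share 2116 to 2119 of 4661 to 5080 bases. Beta transcripts share no exonic bases with one another, apart from Pcdhb21 and Pcdhb22, which overlap by 455 bases. A read from a constant exon fits every member of its cluster, and RSEM divides such reads between members by estimation. Values above 0 carried decimals in 44 of 46 cases for alpha (95.7%), in 310 of 314 cases for gamma (98.7%) and in 11 of 313 cases for beta (3.51%), against 12.6% in all other genes. Levels of single alpha and gamma members are for this reason less certain than those of beta members, while the sum over a cluster does not depend on the division among its members.

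The gamma cluster supplied most clustered protocadherin RNA in skin, and the alpha cluster almost none. Of the 44849 member counts over all samples, 75.5% were gamma, 23.9% beta and 0.602% alpha. Summed gamma levels ran from 93.0 CPM in acellular 10 mm replicate 1 to 205 CPM in normal replicate 2. Summed beta levels ran from 25.4 CPM in acellular 15 mm replicate 1 to 59.6 CPM in HDB 15 mm replicate 2, and summed alpha levels from 0.227 to 2.00 CPM. Every gamma and beta sum was thus above every alpha sum.

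**Figure D1:**
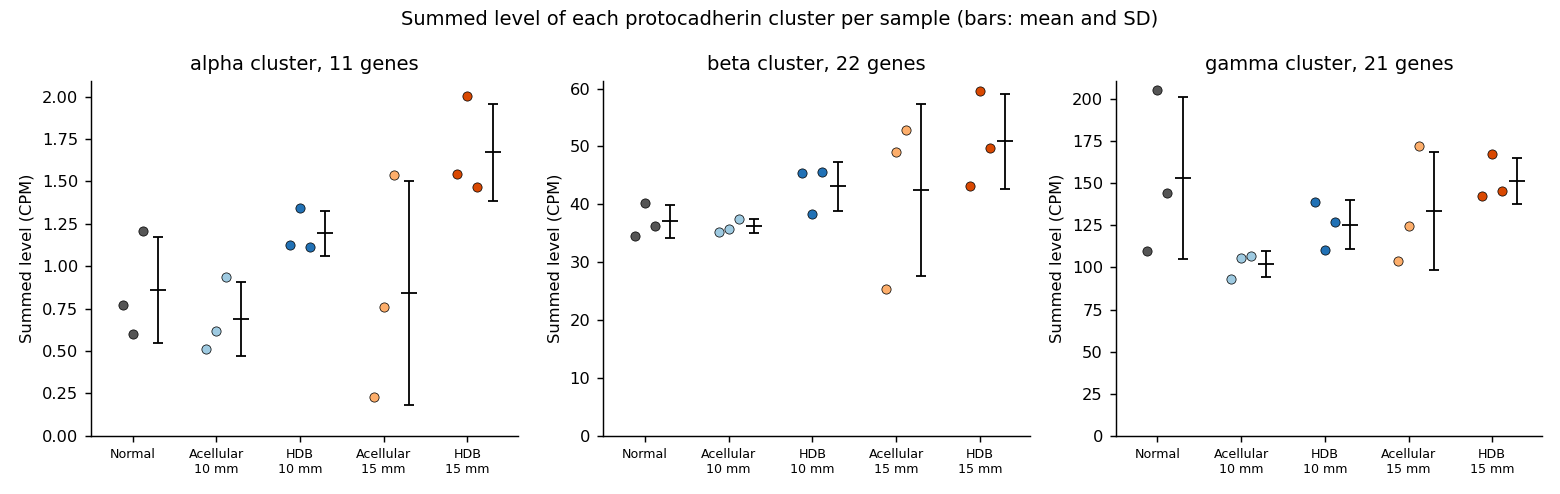
Summed level of the alpha, beta and gamma members in each sample, in CPM on the vertical axis, by group on the horizontal axis. Points are samples and bars mark the mean and SD of 3 samples. Alpha sums stay at or below 2.00 CPM, while gamma sums lie between 93.0 and 205 CPM.

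By group, the beta sum was 37.0 ± 2.91 CPM in normal skin, 36.2 ± 1.18 in acellular 10 mm, 43.1 ± 4.18 in HDB 10 mm, 42.4 ± 14.9 in acellular 15 mm and 50.9 ± 8.25 in HDB 15 mm (mean ± SD, n = 3). The difference between the lowest and the highest group mean is smaller than the range within acellular 15 mm wounds alone. At 10 mm all HDB samples had a higher beta sum than all acellular ones, and at 15 mm the groups overlapped. The gamma sum was 153 ± 48.3 CPM in normal skin, 102 ± 7.70 in acellular 10 mm, 126 ± 14.5 in HDB 10 mm, 134 ± 35.0 in acellular 15 mm and 152 ± 13.7 in HDB 15 mm (mean ± SD, n = 3). Here acellular 10 mm had the lowest mean, and normal skin varied most. The alpha sum was 0.861 ± 0.312, 0.689 ± 0.220, 1.19 ± 0.132, 0.842 ± 0.661 and 1.67 ± 0.288 CPM in the same order (mean ± SD, n = 3), with both HDB groups above the others in their means. These alpha sums rest on 4 to 33 counts per sample.

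Members differed widely in level. At least 1 count was found in all 15 samples for 40 members, 20 beta and 20 gamma, and a mean level of 1 CPM or more was reached by 36 members, 15 beta, 21 gamma and no alpha. Per kilobase of transcript, the median level over all samples was 0.0105 CPM in the regular alpha members, 0.427 in beta, 0.796 in gamma A, 0.757 in gamma B and 0.400 in the gamma C-type members. The most abundant was Pcdhgc3 at 13.4 CPM per kilobase, 4.75 times the next, Pcdhb17, at 2.81. Pcdhgb2 followed at 1.50, Pcdhb20 at 1.29 and Pcdhga6 at 1.21, while Pcdhga1 had 0.918 CPM per kilobase and ranked 9. At the other end, Pcdhb1 had 1 count in 1 sample, HDB 15 mm replicate 3.

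**Figure D2:**
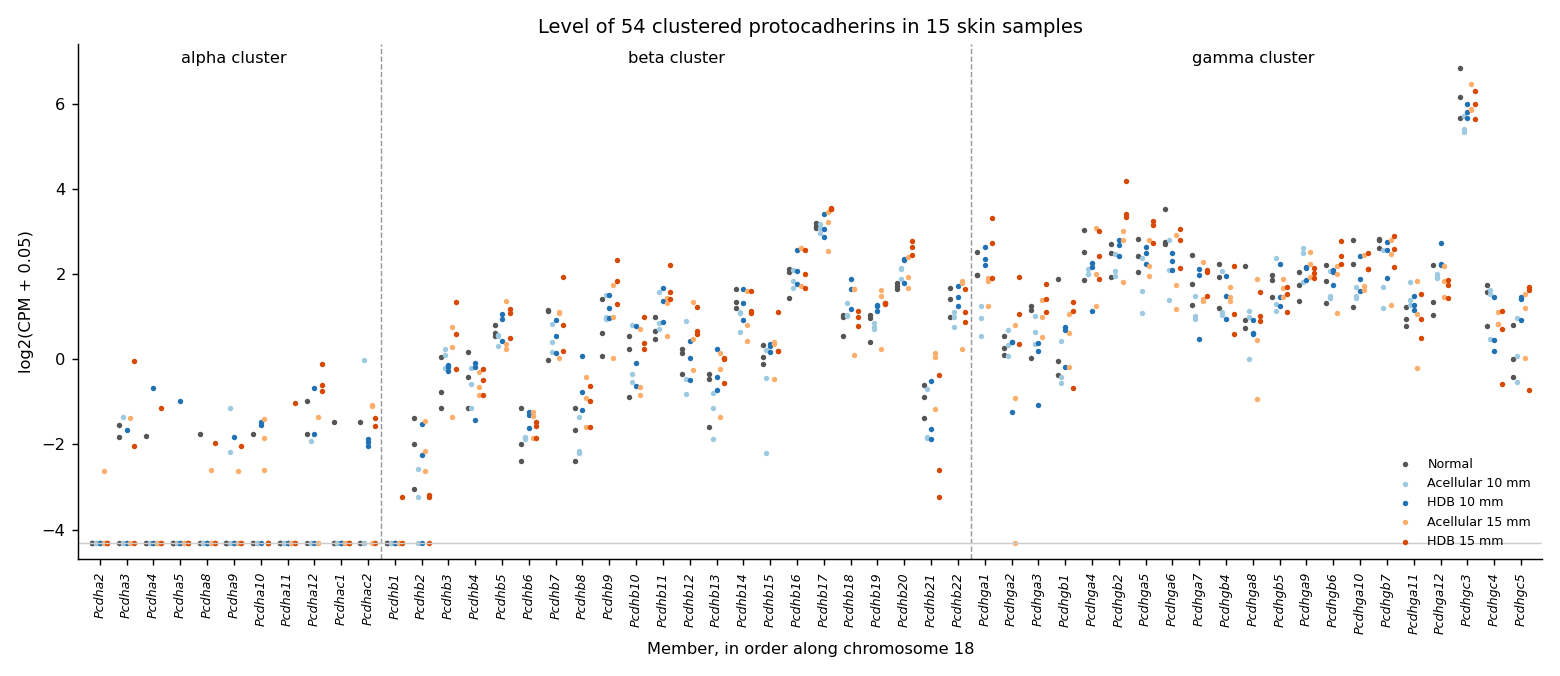
Level of each of the 54 members as log2(CPM + 0.05) on the vertical axis, ordered along chromosome 18 on the horizontal axis from alpha to gamma. Each point is a sample, coloured by group. Alpha members lie near the bottom of the scale, and Pcdhgc3, near the gamma end, is the highest member in every sample on this scale.

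The C-type members, named for variable exons at the downstream ends of the alpha and gamma clusters that neurons use without the random choice made among regular members, ranged from abundant to nearly absent. Pcdhgc3 (Gene ID 93706, 37806410 to 37841873), whose protein has been linked to restraint of Wnt signalling through Axin1, was at 50.6, 115 and 71.4 CPM in normal replicates 1, 2 and 3. It was at 40.2, 42.0 and 52.3 CPM in acellular 10 mm, at 63.2, 51.0 and 56.1 CPM in HDB 10 mm, at 58.9, 57.7 and 87.4 CPM in acellular 15 mm and at 63.9, 79.1 and 49.9 CPM in HDB 15 mm. Normal replicate 2 was the highest sample, and all groups overlapped with normal skin. Pcdhgc3 made up 34.4% to 56.8% of the gamma sum in a sample (median 46.2%), the lowest in HDB 15 mm replicate 3 and the highest in acellular 15 mm replicate 1.

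The other C-type members were much lower. Pcdhgc4 (Gene ID 93707, 37815079 to 37841873), the gamma member on which survival of many neurons depends, was at 1.66, 2.93 and 3.32 CPM in normal skin, 1.35, 2.85 and 3.01 in acellular 10 mm, 1.31, 1.09 and 2.69 in HDB 10 mm, 1.73, 1.73 and 2.11 in acellular 15 mm and 1.59, 2.13 and 0.62 in HDB 15 mm, with no group apart from the others. Pcdhgc5 (Gene ID 93708, 37819546 to 37841873), known from synapses, was at 0.70, 1.70 and 0.95 CPM in normal skin, 1.01, 1.92 and 0.64 in acellular 10 mm, 2.69, 1.83 and 2.61 in HDB 10 mm, 0.98, 2.24 and 2.86 in acellular 15 mm and 0.56, 3.01 and 3.17 in HDB 15 mm. HDB 10 mm lay above normal skin, while HDB 15 mm held both the lowest and the highest sample and overlapped with every group. Pcdhac2 (Gene ID 353237, 37143678 to 37187663), needed for the spacing of serotonergic axons, had no count in 6 of 15 samples and at most 0.94 CPM, in acellular 10 mm replicate 3. Pcdhac1 (Gene ID 353236, 37090136 to 37187657) was found in normal replicate 2 alone, with an estimated 4.59 counts or 0.31 CPM.

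Each of the 11 alpha members was at 0 in at least 1 sample. The most abundant was Pcdha12 (Gene ID 192164, 37020230 to 37187657), the only alpha member that passed the filter on low counts, which it did through its HDB samples. It was at 0.46, 0 and 0.24 CPM in normal skin, 0, 0.21 and 0 in acellular 10 mm, 0.24, 0.58 and 0 in HDB 10 mm, 0, 0 and 0.34 in acellular 15 mm and 0.61, 0.87 and 0.54 in HDB 15 mm. HDB 15 mm was thus the only group with an estimated count in all 3 samples. Pcdha3 (Gene ID 192163, 36946088 to 37187663) had its highest level, 0.93 CPM, in HDB 15 mm replicate 3 and was at 0 in 8 samples.

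Among beta members, Pcdhb17 (Gene ID 93888, 37485021 to 37488290) led with 15.9% to 26.5% of the beta sum. It was at 8.64, 8.37 and 9.12 CPM in normal skin, 8.96, 8.42 and 7.72 in acellular 10 mm, 7.22, 8.34 and 10.6 in HDB 10 mm, 5.78, 10.9 and 9.24 in acellular 15 mm and 11.4, 11.4 and 11.6 in HDB 15 mm. The HDB 15 mm samples were close together and above every other sample. Pcdhb20 (Gene ID 93891, 37504264 to 37507660) was at 3.09, 3.41 and 3.22 CPM in normal skin, 4.34, 4.32 and 3.62 in acellular 10 mm, 5.09, 3.39 and 4.94 in HDB 10 mm, 3.12, 5.19 and 3.77 in acellular 15 mm and 6.17, 5.40 and 6.83 in HDB 15 mm. Again, HDB 15 mm lay above all other samples, and normal skin was at the low end of the range. Pcdhb16 (Gene ID 93887, 37477768 to 37483038) ranged from 2.67 CPM in normal replicate 1 to 6.05 CPM in acellular 15 mm replicate 3, with overlap between all groups.

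Among regular gamma members, the level of Pcdhga1 (Gene ID 93709, 37661775 to 37841870), which has the most upstream variable exon of the gamma cluster, was 3.86, 5.63 and 3.87 CPM in normal skin. It was 2.33, 1.91 and 1.41 CPM in acellular 10 mm, 6.13, 5.09 and 4.57 CPM in HDB 10 mm, 2.34, 3.73 and 3.52 CPM in acellular 15 mm and 3.69, 6.58 and 9.91 CPM in HDB 15 mm. Both HDB groups had higher means than normal skin and both acellular groups lower ones, and HDB 15 mm replicate 1 lay within the acellular 15 mm range. These values rest on 24.2 to 175 estimated counts per sample, with decimals in 14 of 15 samples. Pcdhga1 made up 1.32% to 6.82% of the gamma sum (median 2.75%), the lowest in acellular 10 mm replicate 3 and the highest in HDB 15 mm replicate 3, the sample in which the share of Pcdhgc3 was lowest.

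The most abundant regular gamma member was Pcdhgb2 (Gene ID 93700, 37689859 to 37841872). Its level was 3.76, 5.57 and 6.52 CPM in normal skin, 3.84, 5.45 and 4.14 in acellular 10 mm, 6.38, 5.27 and 6.92 in HDB 10 mm, 3.48, 6.93 and 7.96 in acellular 15 mm and 10.6, 10.1 and 18.1 in HDB 15 mm. All 3 HDB 15 mm samples were above the other 12. Pcdhga6 (Gene ID 93714, 37707101 to 37841870) ranged from 2.23 CPM in acellular 15 mm replicate 2 to 11.5 CPM in normal replicate 2, and all 3 HDB 10 mm samples, at 4.93, 4.19 and 5.61 CPM, lay below the normal samples at 6.44, 11.5 and 6.69 CPM.

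**Figure D3:**
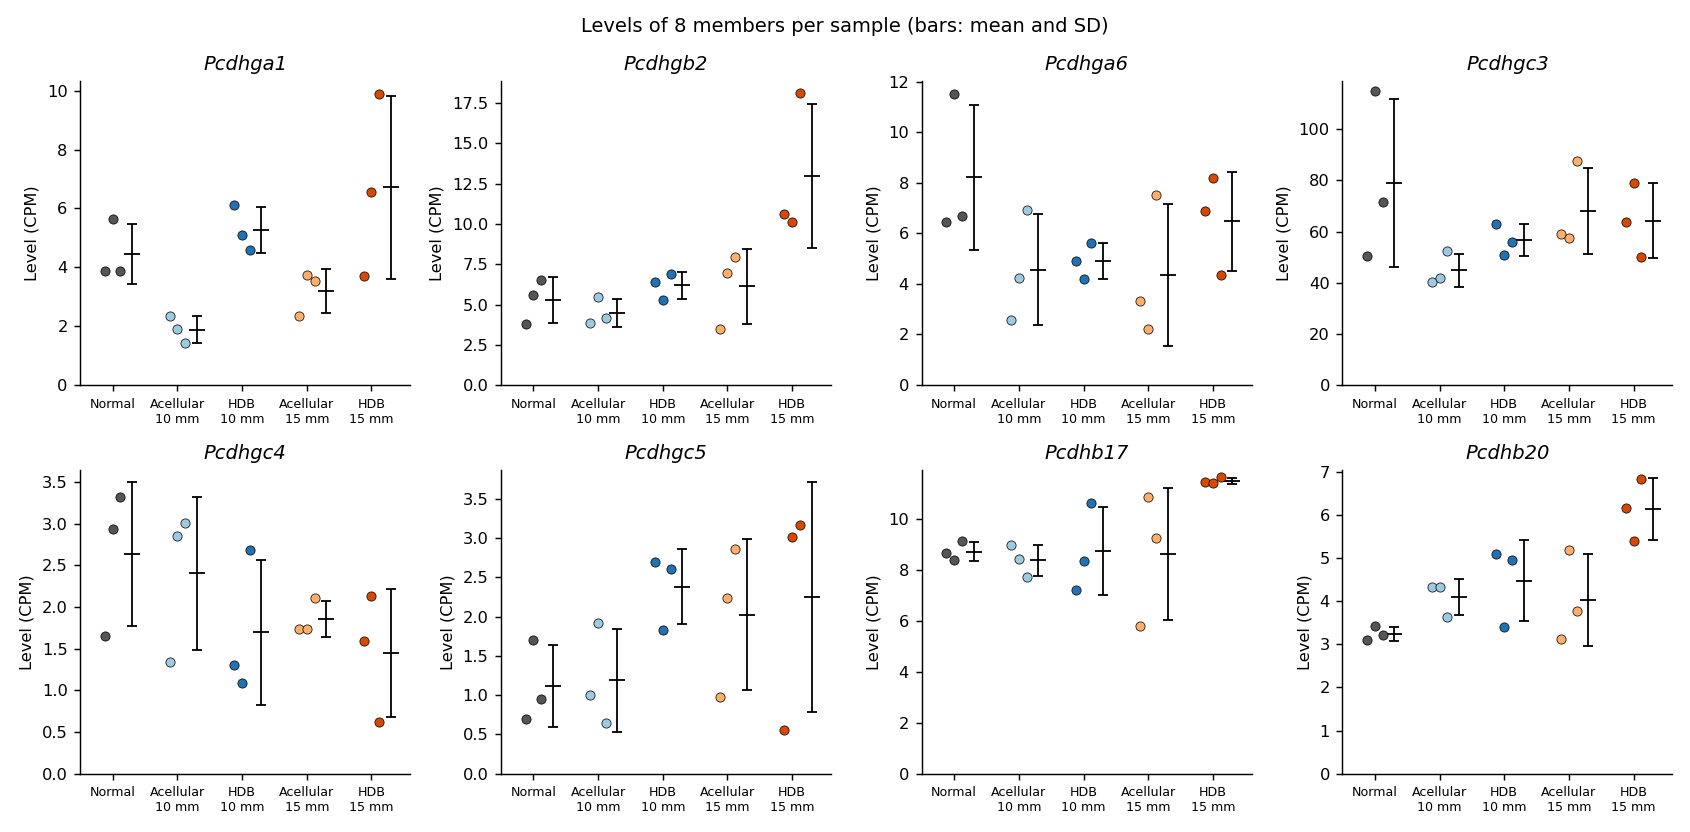
Level in CPM (vertical axis) of 8 named beta and gamma members in each sample, by group (horizontal axis). Points are samples and bars mark the mean and SD of 3 samples. Pcdhb17, Pcdhb20 and Pcdhgb2 are higher in all HDB 15 mm samples than in any other sample, whereas Pcdhga1 in HDB 15 mm spreads from 3.69 to 9.91 CPM.

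Wounded skin was first compared with normal skin, as the mean of the 4 wounded groups minus normal, to see whether the family shared in the change that accompanies wounding. No member was called by edgeR. The quasi-likelihood test of edgeR, adjusted after Benjamini and Hochberg over 15369 genes, called 4746 of them at 0.05 (30.9%), of which 2182 rose and 2564 fell, and called 0 of 40 members. Of the 41 that passed the filter (1 alpha, 19 beta, 21 gamma), Pcdhga1 is left out of the tests of this and the following comparisons, since its level in HDB skin chose the family. At an unadjusted p under 0.05 there were 2 members, Pcdhgc3 and Pcdhb20, against 43.7% of all genes. DESeq2 called 1 member (Pcdhb20, adjusted p = 0.0387) against 40.1% of genes, and limma-voom 0 against 28.6%. The wounded and normal samples did not overlap for 21% of genes and for 0 members.

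The beta and gamma members leaned in opposite directions in this comparison. The median log2 fold change was 0.22 over 19 beta members, of which 14 were higher in wounded skin, and -0.22 over 21 gamma members, of which 7 were higher. Over all members it was 0.02, with 21 of 41 higher, against 0.04 and 53.5% higher over all genes. The TMM factors lower every log2 fold change of this comparison by 0.18 relative to scaling by library size alone. With library size alone, 28 of 41 members were higher, 18 beta and 10 gamma, and their median was 0.20 where that of all genes was 0.22. This scaling adds the same amount to every gene, so that distances from the median gene do not change with it. As a ratio of summed CPM, wounded over normal skin was 1.16 for beta, 0.837 for gamma and 1.28 for alpha, and 0.940 for gamma without Pcdhgc3. The gamma ratio leaned on normal replicate 2. Normal gamma sums were 110, 205 and 144 CPM, so replicates 1 and 3 lay on either side of the wounded mean of 128 CPM. The gamma median shares these normal samples.

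Of the members, Pcdhgc3 had a log2 fold change of -0.45 (SE 0.21, edgeR adjusted p = 0.114) between wounded and normal skin. Without normal replicate 2, its highest sample, this became -0.08, and without normal replicate 1 it became -0.69 and passed the test, with an adjusted p of 0.0435. Pcdhb20 stood at 0.51 (SE 0.20, edgeR adjusted p = 0.0656), with 0.0264 to 0.182 over the alternatives, and passed without HDB 10 mm replicate 2 or without acellular 15 mm replicate 1. Pcdhga6 had -0.71 (edgeR adjusted p = 0.132) and passed without acellular 15 mm replicate 3, at -0.88 (adjusted p = 0.0334). The estimates were less precise than for all genes, with a median SE of 0.34 for members and 0.19 for all genes, and 24 of 41 members lay within 1 SE of 0. Neither the SEs nor the shares of genes called were matched on level.

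Marker levels of other tissue components moved with the same comparison. The 10 skeletal muscle markers summed to 46544 to 56299 CPM in normal skin and to 608 to 33810 CPM in wounded skin. By edgeR 1 of these 10 fell (median log2 fold change -1.94). All 10 endothelial markers fell by the same test, with sums of 675 to 783 CPM in normal skin and 125 to 522 CPM in wounded skin, and no endothelial marker was at 0 in any sample. Of the 12 neuron and axon markers, 7 had a mean under 1 CPM and were at 0 in at least 1 sample (Elavl3, Elavl4, Snap25, Nefl, Nefm, Prph and Scn9a). The list summed to 19.6 to 21.9 CPM in normal skin and 8.03 to 39.6 CPM in wounded skin, or 8.03 to 18.1 CPM, below all normal samples, without acellular 15 mm replicate 1. Its most abundant gene, Syp, a synaptic vesicle protein, fell by 0.68 on the log2 scale (edgeR adjusted p = 0.0373). Of the 6 fitted genes of that list, 3 fell and 0 rose by the same test (median log2 fold change -0.67). In sign 1 of them went the other way, at 3.62. Of the other lists, by the same test, 6 of 10 keratinocyte markers rose and 1 fell (median log2 fold change 0.70), 6 of 10 hair shaft markers rose (8.15, or 7.51 without acellular 15 mm replicate 1), and 1 of 7 melanocyte markers rose (2.39, or 1.67). Of 9 macrophage markers 7 fell (-1.47), of 8 adipocyte markers 5 (-1.38), of 3 fitted erythrocyte markers 3 (-1.76), of 10 fibroblast markers 2 (-0.80) and of 9 pericyte and smooth muscle markers 2 (-0.28). Of 10 Schwann cell markers 1 rose and 2 fell (-0.47), and of 7 T cell markers 1 rose (0.61). The part of these differences in the members' levels was not tested.

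Each wounded group was then set against normal skin, with the same 3 normal samples in all 4 comparisons. Acellular 10 mm wounds gave 0 of 40 called, against 20.3% of all genes, HDB 10 mm wounds 0 of 40 against 12.3%, and acellular 15 mm wounds 0 of 40 against 30.2%. In HDB 15 mm wounds, 2 of 40 members rose and 0 fell, where 5.18% of all genes were called in either direction and 2.67% rose. Members with an unadjusted p under 0.05 numbered 2, 3, 0 and 5 in these 4 comparisons, against 38.3%, 31.6%, 43.8% and 26.9% of all genes. DESeq2 called 1, 1, 0 and 3 members, against 33%, 24.8%, 40.3% and 18.7% of genes.

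The members that rose in HDB 15 mm over normal skin were Pcdhgb2 and Pcdhb20. Pcdhgb2 rose 2.45-fold (log2 fold change 1.29, SE 0.34, edgeR adjusted p = 0.0473), and Pcdhb20 rose 1.89-fold (log2 fold change 0.92, SE 0.24, edgeR adjusted p = 0.0470). In each case all 3 HDB 15 mm samples lay above all 3 normal samples. Both calls sat at the threshold, and neither was made without a filter on low counts, with the replicate number as a block or by limma-voom. In 15 fits that each omitted a single sample, Pcdhgb2 was called in 3 (without acellular 15 mm replicate 1, acellular 15 mm replicate 3 or HDB 15 mm replicate 2) and lost in 12. Pcdhb20 was called in 6 of these fits (without HDB 10 mm replicate 1 or 2, any acellular 15 mm sample or HDB 15 mm replicate 2) and lost in 9. Over the 23 alternatives, the edgeR, DESeq2 or limma-voom adjusted p ran from 0.0031 to 0.204 for Pcdhgb2 and from 0.00334 to 0.18 for Pcdhb20.

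Across members, the medians in the 4 comparisons with normal skin were -0.24 in acellular 10 mm, 0.04 in HDB 10 mm, -0.01 in acellular 15 mm and 0.30 in HDB 15 mm, on the log2 fold change scale, while the medians of all genes lay between 0.02 and 0.06. The counts of members higher than normal were 12, 23, 20 and 28 of 41, in that order. Beta medians were -0.06, 0.20, 0.31 and 0.48 and gamma medians -0.37, -0.22, -0.22 and 0.03, so that beta exceeded gamma in each group. All 4 comparisons share normal replicate 2, whose gamma sum of 205 CPM was the highest of all samples. Without acellular 15 mm replicate 1, the acellular 15 mm group had 28 of 41 members higher than normal, with medians of 0.25 for all members, 0.62 for beta and 0.01 for gamma, against 0.02 for all genes. In acellular 10 mm, Pcdhgc3 had -0.82 (edgeR adjusted p = 0.0521), and it passed by DESeq2, with a mean of at least 50 counts, and without normal replicate 1 or acellular 15 mm replicate 1 or 3. Likewise Pcdhb18 passed in HDB 10 mm (0.73) and Pcdhb19 in acellular 15 mm (0.74) without acellular 15 mm replicate 1, and Pcdhga6 in acellular 15 mm (-1.56) without its replicate 3. In HDB 15 mm, Pcdhb11 had 1.07 (edgeR adjusted p = 0.0927) and was called by DESeq2 and, by edgeR, with only the groups compared or without acellular 15 mm replicate 1.

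The wider wounds were compared with the narrower ones, as the mean of both 15 mm groups minus that of both 10 mm groups, a contrast balanced over bead type. Of 40 members 0 were called by edgeR, against 61 of 15369 genes (0.397%), and 3 had an unadjusted p under 0.05 (Pcdhgb2, Pcdhga3 and Pcdhga5), against 15.1% of genes. DESeq2 called 2 members, Pcdhgb2 and Pcdhga3, against 6.67% of genes. Most members nevertheless were higher in 15 mm wounds, 33 of 41 with a median log2 fold change of 0.28, against 55.7% of all genes and a median of 0.03. This held in the beta (17 of 19, median 0.25) and gamma (15 of 21, median 0.33) clusters alike, and without acellular 15 mm replicate 1 it was 35 of 41 with a median of 0.43. For single members the difference was small beside its error: 35 of 41 lay within 2 SE of 0. Pcdhgb2 had 0.76 (edgeR adjusted p = 0.151), which without acellular 15 mm replicate 1 was 0.90 and passed, and Pcdhga3 0.92 (edgeR adjusted p = 0.174), the range over all members being -0.40 to 0.92. Marker medians differed with size as well, though edgeR called none of these markers with all samples. All 10 fibroblast markers were higher at 15 mm (median 0.61, or 0.75 without acellular 15 mm replicate 1), as were all 10 endothelial markers (0.46, or 0.55), 7 of 8 adipocyte markers (1.73, or 1.92) and all 10 hair shaft markers (3.37, or 1.99). Also higher were 6 of 6 fitted neuron and axon markers (0.74, or 0.72), 8 of 9 macrophage markers (0.70, or 0.85), 3 of 3 fitted erythrocyte markers (1.61, or 1.86), 9 of 10 Schwann cell markers (0.15, or 0.26) and 7 of 9 pericyte and smooth muscle markers (0.19, or 0.28). Skeletal muscle markers were lower in 10 of 10 cases (-0.42, or -0.22) and keratinocyte markers in 8 of 10 (-0.19, or -0.12). The melanocyte markers turned with that sample, from 7 of 7 higher to 2 of 7, and the T cell markers from 2 of 7 higher to 7 of 7. The part of these components in the members' difference was not tested.

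**Figure D4:**
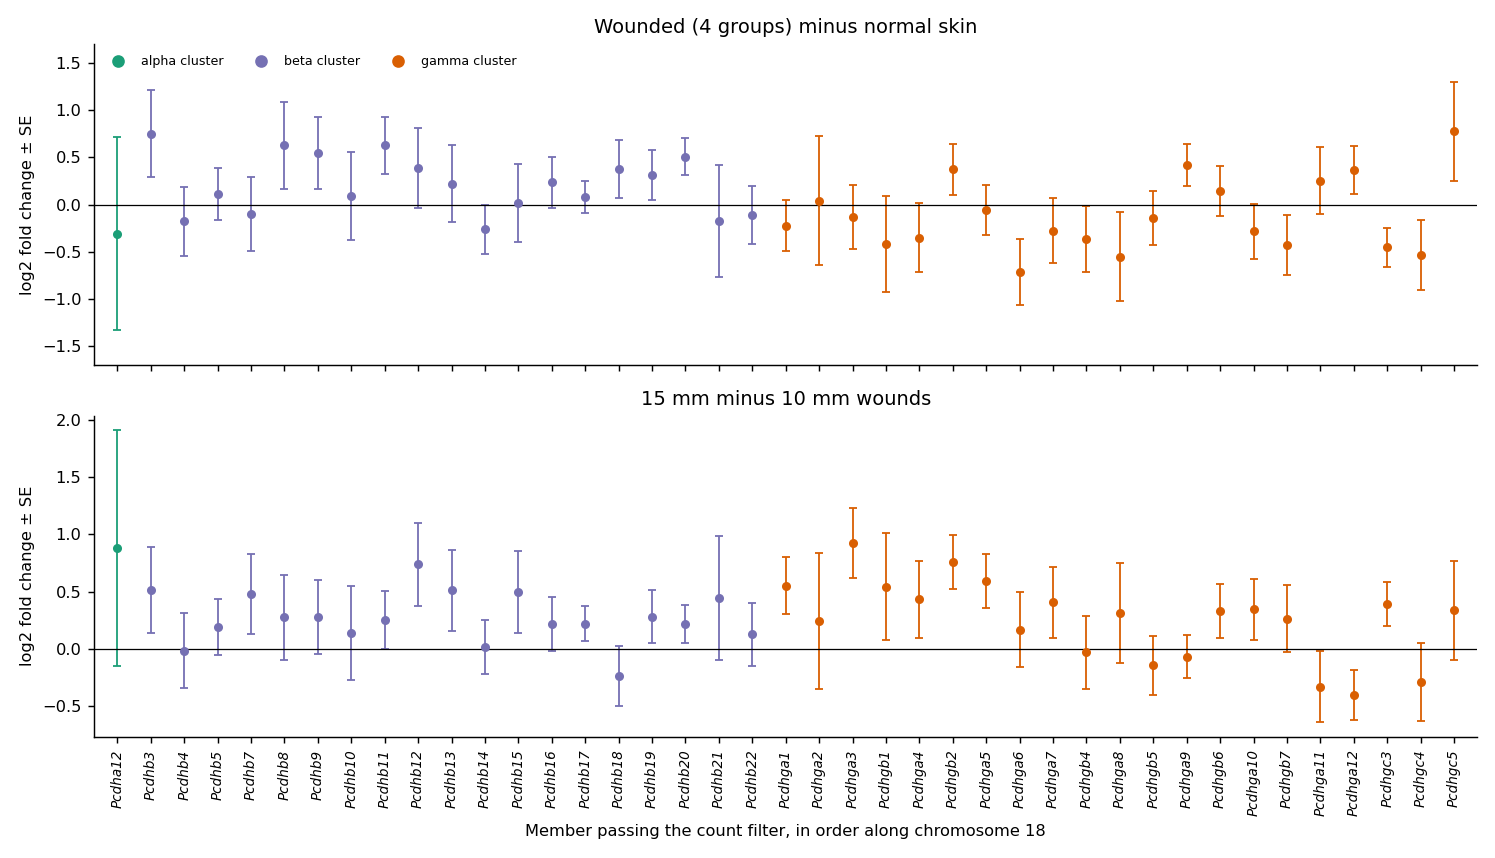
Fitted log2 fold change (vertical axis) with its SE for 41 members ordered along chromosome 18 (horizontal axis), for wounded minus normal skin (upper panel) and 15 mm minus 10 mm wounds (lower panel). Beta members lie mostly above 0 in the upper panel and gamma members mostly below it, while in the lower panel 33 of 41 members lie above 0.

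High-density and acellular beads were compared at each wound size, the contrast on which the family was selected. Pcdhga1 was 1.48 higher in HDB at 10 mm on the log2 scale (SE 0.36) and 1.07 higher at 15 mm (SE 0.35), or 1.28 over both sizes (SE 0.25). At 10 mm all 3 HDB samples exceeded all 3 acellular ones, and at 15 mm they overlapped through HDB replicate 1. Its difference at 15 mm was 0.69 without HDB 15 mm replicate 3 and 0.89 without acellular 15 mm replicate 1. As a share of the gamma sum, Pcdhga1 was at 4.40%, 4.62% and 3.60% in HDB 10 mm against 2.51%, 1.80% and 1.32% in acellular 10 mm, and at 2.59%, 3.93% and 6.82% in HDB 15 mm against 2.25%, 2.99% and 2.05% in acellular 15 mm.

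Other members differed from it in size or between the 2 wounds. Pcdha12 had larger fitted differences than Pcdhga1, 1.78 at 10 mm (SE 1.48) and 2.55 at 15 mm (SE 1.31), or 2.01 at 15 mm without acellular 15 mm replicate 1, on levels of at most 0.87 CPM. Only HDB samples carried Pcdha12 past the filter on low counts. It had 9.6 to 14.42 counts in HDB 15 mm and 10.73 in HDB 10 mm replicate 2. Elsewhere it had at most 6.55, so these differences depend in part on the filter. Pcdhgb2 was 0.47 higher in HDB at 10 mm and 1.08 at 15 mm, Pcdhb20 0.13 and 0.61, and Pcdhb17 0.06 and 0.41 (log2 fold changes). Pcdhgc3 was 0.34 higher at 10 mm and -0.08 at 15 mm. Without acellular 15 mm replicate 1, the differences at 15 mm were 0.80 for Pcdhgb2, 0.45 for Pcdhb20, 0.19 for Pcdhb17 and -0.17 for Pcdhgc3. Pcdhga5 was nearly the same at both sizes, 0.67 and 0.70, whereas Pcdhga2 had -0.34 and 1.65 and Pcdhb8 1.46 and -0.12, and without that sample their values at 15 mm were 0.54, 1.45 and -0.39 (Pcdhga5, Pcdhga2 and Pcdhb8 were picked after their values were seen). Members with every HDB sample above every acellular sample numbered 6 of 41 at 10 mm (Pcdhb8, Pcdhb13, Pcdhb19, Pcdhb22, Pcdhga1 and Pcdhga12), against 4.52% of all genes, and 5 of 41 at 15 mm (Pcdha12, Pcdhb17, Pcdhb20, Pcdhgb2 and Pcdhgb6), against 8.56% of all genes. Pcdha12 is among the 41 only through its HDB counts, so its place on the 15 mm list is not free of the filter. No member was on both lists, and none of these 41 lay wholly below acellular skin at either size, against 6.47% of all genes at 10 mm and 11.7% at 15 mm. Among the 13 members too low to be fitted, Pcdhb6 lay above acellular skin at 10 mm, and Pcdha10 (0 in HDB, 0.114 to 0.331 CPM in acellular) and Pcdhb2 (0 to 0.0606 CPM against 0.113 to 0.319 CPM) lay below it at 15 mm.

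Counted over the family, 31 of 41 members were higher in HDB at 10 mm, with a median log2 fold change of 0.29, and 29 of 41 at 15 mm, with a median of 0.24, against 48.2% and 50.3% of all genes. At 15 mm this count rested on 1 sample. Without acellular 15 mm replicate 1, 18 of 41 members were higher, 9 of 19 beta and 8 of 21 gamma, and the median was -0.03. The ratio of summed CPM, HDB over acellular, was 1.19 for beta and 1.23 for gamma at 10 mm. At 15 mm it was 1.20 for beta and 1.14 for gamma with all samples, and 0.999 and 1.02 without that sample. For alpha it was 1.73 at 10 mm and 1.98 at 15 mm, or 1.45 without it, on sums of at most 2.00 CPM.

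**Figure D5:**
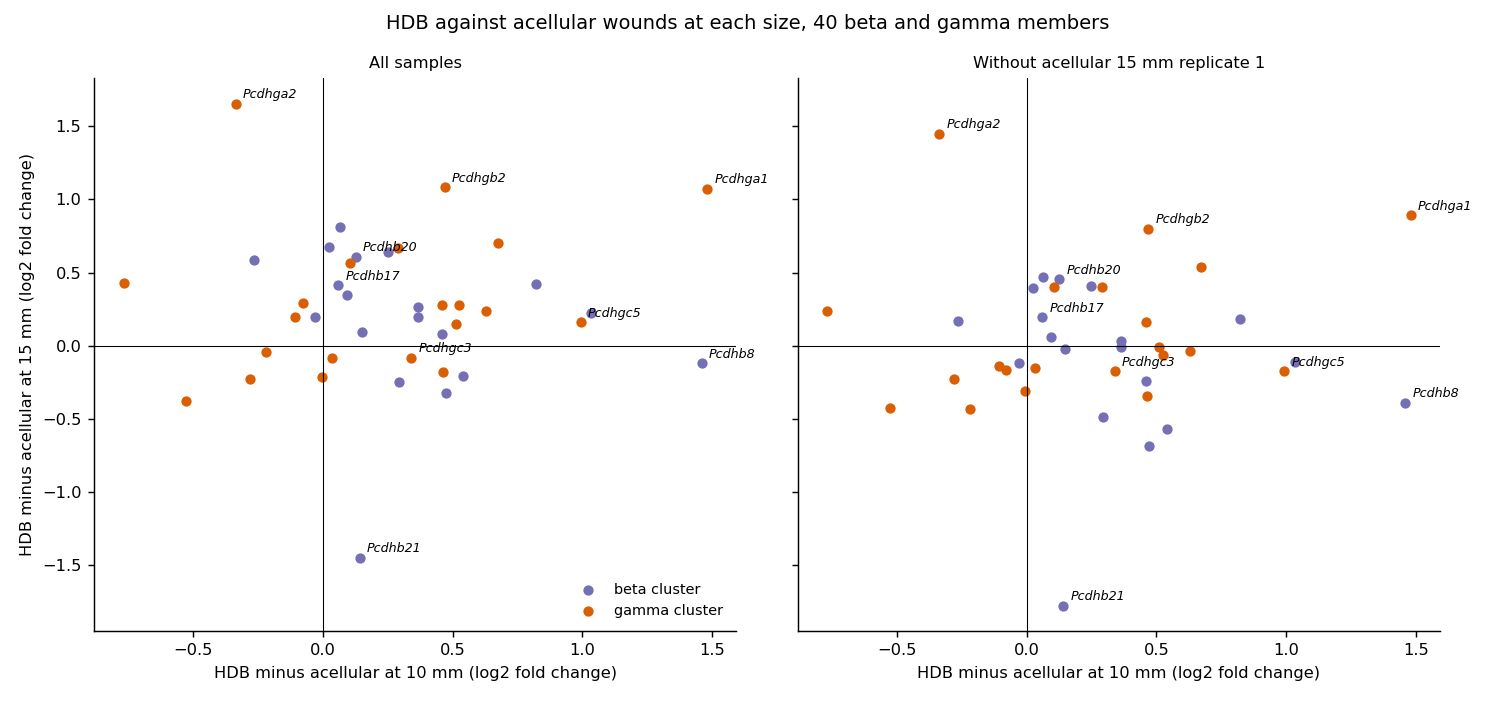
HDB minus acellular log2 fold change of 40 beta and gamma members at 10 mm (horizontal axis) against 15 mm (vertical axis), with all samples (left) and without acellular 15 mm replicate 1 (right). Each point is a member. The members shift downwards from left to right, from 29 of 41 above 0 at 15 mm to 18 of 41, counting Pcdha12, which is not drawn, while Pcdhga1 stays above 0 at both sizes.

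Marker medians of several skin components differed with bead type. By edgeR, no marker of these lists was called over both sizes or at 10 mm. At 15 mm 1 pericyte and smooth muscle marker fell, and no other was called. Over both sizes, the 10 fibroblast markers were all higher in HDB, with a median log2 fold change of 1.00, and their sums were 3687 to 5693 CPM in acellular 10 mm, 9272 to 12285 CPM in HDB 10 mm, 3627 to 15227 CPM in acellular 15 mm and 8599 to 18882 CPM in HDB 15 mm. Endothelial markers were higher in 10 of 10 cases and Schwann cell markers in 8 of 10, with medians of 0.56 and 0.52, and hair shaft markers were lower in 10 of 10, with a median of -4.80. Also higher over both sizes were 8 of 8 adipocyte markers (0.80, or 0.65 without acellular 15 mm replicate 1), 9 of 9 macrophage markers (0.70, or 0.52), 10 of 10 skeletal muscle markers (0.53, or 0.34), 7 of 7 T cell markers (0.45, or 0.33), 3 of 3 fitted erythrocyte markers (0.45, or 0.20), 5 of 6 fitted neuron and axon markers (0.41, or 0.24) and 7 of 9 pericyte and smooth muscle markers (0.30, or 0.19). Keratinocyte markers were higher in 4 of 10 cases (-0.12, or -0.19), and melanocyte markers went from 0 of 7 higher (-1.38) to 4 of 7 (0.07). At 10 mm alone the counts differed for some lists. There 4 of 10 skeletal muscle markers (median -0.03), 0 of 3 erythrocyte markers (-0.11), 2 of 10 keratinocyte markers (-0.35) and 1 of 7 melanocyte markers (-0.31) were higher in HDB, while fibroblast (10 of 10, 0.95), endothelial (10 of 10, 0.62), adipocyte (8 of 8, 1.08), macrophage (9 of 9, 0.41), T cell (7 of 7, 0.58), Schwann cell (9 of 10, 0.20), pericyte and smooth muscle (7 of 9, 0.24) and neuron and axon markers (4 of 6, 0.51) were mostly higher, and hair shaft markers were lower in 10 of 10 (-4.99). Over both sizes without acellular 15 mm replicate 1 the medians were 0.85 for fibroblast, 0.50 for endothelial, 0.40 for Schwann cell and -3.22 for hair shaft markers. At 15 mm alone the medians (and without that sample) were 0.91 (0.55) for fibroblast, 0.44 (0.26) for endothelial and 0.92 (0.65) for Schwann cell markers. They were 0.83 (0.52) for macrophage, 0.41 (0.11) for adipocyte, 1.20 (0.81) for skeletal muscle and 1.00 (0.51) for erythrocyte markers. T cell markers had 0.49 (0.06), neuron and axon 0.317 (0.165), pericyte and smooth muscle 0.275 (0.193), keratinocyte 0.16 (-0.11) and melanocyte -2.70 (0.23). At 15 mm the hair shaft sums were 19442, 1506 and 26.6 CPM in acellular and 608, 119 and 109 CPM in HDB wounds, so that acellular replicate 3 lay below every HDB sample, and without replicate 1 the median there went from -4.78 to -1.56. No fibroblast or Schwann cell marker was at 0 in any sample, whereas Krt33b, Krt34, Krt73 and Krt25 of the hair shaft list were at 0 in some. The part of these components in the members' levels was not tested.

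Replicates of the family varied more than those of all genes, in a comparison not matched on level. Low counts and a trait of the family cannot be told apart in it. The median coefficient of variation within a group was 23.6% to 44.4% over beta members and 21.1% to 36.4% over gamma members, against 10.3% to 29% over all genes, and it was highest in acellular 15 mm for each of these sets. This spread bounds what 3 samples a group can show for genes that mostly lie under 10 CPM.

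Genes known to act with the family or to control it were read in the same fit, wounded against normal skin, with changes given as log2 fold changes. Of all genes, 30.9% were called in this comparison. Of 12 nonclustered protocadherins, single genes outside the clusters, 2 rose and 2 fell, with a median log2 fold change of -0.30. Pcdh8, a synaptic and embryonic protocadherin, rose by 4.36 (edgeR adjusted p = 0.0150) and Cdhr1, a photoreceptor cadherin, by 2.92 (edgeR adjusted p = 0.0495), while the abundant Pcdh7 and Pcdh1 stood at -0.26 and -0.12. Cdhr1 was at 0, 0.20 and 0 CPM in normal skin and at 0.057 to 3.44 CPM in wounded skin, so its change starts from almost no counts. Of 15 classical cadherins and catenins, the adhesion system of epithelia and vessels, 4 rose and 4 fell (median 0.26). Among them Cdh5, the endothelial cadherin, fell by 1.72 (edgeR adjusted p = 0.0018), Cdh15, the muscle cadherin, fell by 1.92 (edgeR adjusted p = 0.0449) and Ctnnb1, encoding beta-catenin, rose by 0.60 (edgeR adjusted p = 0.0292).

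Of 13 genes for promoter choice and chromatin looping, 1 rose and 1 fell (median 0.26). Nipbl, which loads cohesin, rose by 0.28 (edgeR adjusted p = 0.0481) and Pds5b, a cohesin regulator, fell by 0.29 (edgeR adjusted p = 0.0250), and the cohesin subunit Rad21 stood at 0.23. Of 14 silencing and methylation genes, 4 rose (median 0.38), among them Tet3, an oxidase of methylated cytosine, which rose by 0.58 (edgeR adjusted p = 0.0113). Of 29 genes for signalling partners and related adhesion receptors, 6 rose and 3 fell (median 0.06), with Marcks, a membrane-bound regulator of actin, up by 0.70 (edgeR adjusted p = 0.0041) and Dscam, another neuronal self-recognition receptor, up by 3.86 (edgeR adjusted p = 0.0060). Dscam was low throughout, at 0.067 to 0.070 CPM in normal skin and 0.28 to 2.71 CPM in wounded skin. Between 15 mm and 10 mm wounds, edgeR called 0 genes in each of these lists, where 0.397% of all genes were called.

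The counts in these lists moved when acellular 15 mm replicate 1 was left out, as did the share of all genes called, which became 40.1%. Without it, 6 of 13 genes for promoter choice and looping rose and 1 fell (median 0.19), 8 of 14 silencing and methylation genes rose (0.29), 5 of 15 classical cadherins and catenins rose and 4 fell (0.24), 2 of 13 nonclustered protocadherins rose and 4 fell (-0.45), and 6 of 29 signalling partners rose and 5 fell (0.03). Among the genes named, Cdhr1 no longer passed (2.93, edgeR adjusted p = 0.0512) and Pcdh7 did (-0.45, edgeR adjusted p = 0.00813), while Nipbl, Pds5b, Tet3, Marcks, Dscam, Pcdh8, Cdh5, Cdh15 and Ctnnb1 kept their calls.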

How the data were processed

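The deposited table holds expected counts per gene and sample (RSEM estimated counts) for 18929 mouse genes. Per the labels and methods, the authors selected mRNA with oligo(dT) and primed with random hexamers, and the submitters' processing notes name HISAT2 2.0.4, Bowtie2 2.2.5, RSEM 1.2.12 and GRCm38.p6. Samples were grouped by title, and the members and gene lists were chosen with earlier results of these data known. Expected counts were rounded and genes with low counts removed (filterByExpr, minimum 10), leaving 15369 genes and 41 of 54 members. One model of 5 group means was fitted with edgeR 4.0.16 (TMM factors, quasi-likelihood test, Benjamini-Hochberg threshold 0.05, R 4.3.3) where the authors used DESeq2. Alternatives were DESeq2 1.42.0, limma-voom (limma 3.58.1), other filters, only the groups compared, a replicate block, removal of a transcript length trend, and each sample left out. The CPM of the text are TMM-normalized, and SDs are over 3 samples. Gene coordinates come from the RefSeq annotation of GRCm38.p6, and shared exon lengths from GENCODE M21 transcripts. Named genes were Pcdhga1, the C-type members, the 3 most abundant members of each cluster, called members and, in other lists, the most abundant and most changed genes, with any others named for a count of 5 or fewer or marked as picked after their values were seen. Counts of replicate pairs differed by more than sampling noise in all 15 pairs. Same-numbered samples deviated together, with every correlation over 0.1, in 1 of 10 pairs of groups (acellular 15 mm and HDB 15 mm, r = 0.397, 0.167 and 0.183), between which no member was tested. The scripts were tested on simulated data. A result in the silencing and methylation list is not reported here.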

Additional observations from a re-analysis of the deposited data

How the results depend on the processing

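Members called in wounded against normal skin were 1 with DESeq2 and 1 with the length trend removed, against 0. In acellular 10 mm against normal, 5058 genes were called with DESeq2 and 6196 with only the groups compared, and 1 member with DESeq2 and 1 with a mean of at least 50 counts. In HDB 10 mm, 3804 genes were called with DESeq2, 2988 with only the groups compared, 1187 with the replicate block and 1011 with block and length trend, and 1 member with DESeq2. In acellular 15 mm, 972 genes were called with only the groups compared. In HDB 15 mm, 2864 genes were called with DESeq2, 3401 with only the groups compared, 237 with the replicate block and 279 with block and length trend, and members called fell from 2 to 0 without a filter, 0 with the block, 0 with limma-voom and 1 with block and length trend. Between sizes, 1023 genes and 2 members were called with DESeq2, 1 gene without a filter, and 0 with a mean of at least 50 counts, only the groups compared, the block, the length trend or both. The beta sum ratio of wounded over normal skin was 1.32 with library size alone. The causes were not tested.

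Leaving out each sample, called genes ranged from 1848 (without normal replicate 3) to 6229 (without acellular 15 mm replicate 1) in wounded skin, 800 (without acellular 10 mm replicate 1) to 5582 (without acellular 15 mm replicate 1) in acellular 10 mm, 78 (without normal replicate 3) to 4045 (without acellular 15 mm replicate 1) in HDB 10 mm, 2304 (without normal replicate 3) to 5805 (without acellular 15 mm replicate 3) in acellular 15 mm, 34 (without normal replicate 3) to 2478 (without acellular 15 mm replicate 1) in HDB 15 mm and 0 to 720 (without acellular 15 mm replicate 3) between sizes. Called members ranged from 0 to 1 in every comparison except HDB 15 mm, with 0 to 3. Members higher ranged from 41.5% to 68.3% in wounded skin, 68.3% to 87.8% between sizes, and in HDB over acellular 63.4% to 80.5% at 10 mm, 43.9% to 78.0% at 15 mm and 65.9% to 87.8% over both. Signs turned for some members (log2 fold change). In HDB 15 mm against normal, Pcdhgc3 ran from -0.528 to 0.0772 (without normal replicate 2) and Pcdhb16 from -0.0541 (without HDB 15 mm replicate 2) to 0.407. In wounded skin, Pcdha12 ran from -1.30 to 0.569 (without normal replicate 1). Between sizes, Pcdha12 ran from -1.11 to 2.63 and Pcdhga6 from -0.158 to 0.380, both lowest without acellular 15 mm replicate 3. None of these was a call. The replicate block ended the calls of Pcdhgb2 and Pcdhb20 in HDB 15 mm and changed no other member call. Every sample deviated most like its own number in 1 of 10 group pairs.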
